A study of Mus musculus with 9 samples.

Results

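Promoters that were rich in CpG but carried no non-methylated island (NMI) in C127 cells, a mouse mammary epithelial line, were examined here. A promoter was the window of 500 bp either side of the outermost 5′ end of a protein-coding gene on an autosome (GENCODE M21, mm10). It was called CpG-dense at 6 or more CpG per 100 bp, and it was chosen by the absence of an NMI, that is, when no 5′ end of any transcript of the gene lay inside or within 2 kb of one. The members were thus selected on their CpG density and on the NMI list itself. Of 20807 promoters, 7008 were CpG-dense and 1103 of these lacked an NMI, which is 15.7% (exact 95% interval 14.9 to 16.6). A further 5824 dense promoters (83.1%) had a 5′ end inside an NMI and served for comparison, and the other 81 (1.16%) had an NMI only within 2 kb and entered neither group. The series came from C127 cells, with no treatment or genotype named in the labels, and held 1 BioCAP library with 1 input, 3 ATAC libraries with 1 input and 3 libraries of RNA labelled with 4-thiouridine. Only the list of 13491 NMIs called from the BioCAP library was used.

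BioCAP captures sonicated genomic DNA with an immobilised CXXC domain from KDM2B, a zinc finger that binds CpG sites free of methylation. Most CpG in mammalian DNA are methylated and over evolution have been lost to mutation, whereas CpG islands at promoters are usually free of methylation in all tissues and so have stayed dense. A minority of promoter islands become methylated in development, in cultured lines and in tumours, among them those of germline genes, imprinted genes and many regulators of other lineages. The list held positions only, with no score and no replicate. A promoter without an NMI is thus a promoter absent from that list, which depends on the threshold of the peak caller and is not itself a measurement of methylation. With 1 library no test between groups was possible. Intervals given below are exact binomial or order-statistic intervals over promoters and cover counting error only, since promoters are not replicates.

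To show what these promoters look like, the 200 bases upstream of the start site are printed 5′ to 3′ (mm10) for 5 of them, with every CpG in capitals. They are the densest promoter of the set, Pde8a (a cyclic nucleotide phosphodiesterase), and those of Gabbr2 (a GABA-B receptor subunit), Hoxd13 (a homeobox factor of the posterior body and limb), Boll (an RNA-binding protein of male germ cells) and Slc18a3 (the vesicular acetylcholine transporter).
Pde8a (chr7:81213396-81213595, plus strand): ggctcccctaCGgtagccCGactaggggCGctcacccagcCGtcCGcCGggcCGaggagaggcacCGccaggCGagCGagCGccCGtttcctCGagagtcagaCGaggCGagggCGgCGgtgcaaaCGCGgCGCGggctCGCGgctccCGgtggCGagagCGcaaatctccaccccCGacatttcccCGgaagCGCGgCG
Gabbr2 (chr4:46991874-46992073, minus strand): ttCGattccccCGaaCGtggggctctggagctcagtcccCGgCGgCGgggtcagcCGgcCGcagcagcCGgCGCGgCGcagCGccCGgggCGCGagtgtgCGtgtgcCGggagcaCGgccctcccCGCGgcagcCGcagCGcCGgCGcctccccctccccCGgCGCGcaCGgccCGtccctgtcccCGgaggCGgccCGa
Hoxd13 (chr2:74668110-74668309, plus strand): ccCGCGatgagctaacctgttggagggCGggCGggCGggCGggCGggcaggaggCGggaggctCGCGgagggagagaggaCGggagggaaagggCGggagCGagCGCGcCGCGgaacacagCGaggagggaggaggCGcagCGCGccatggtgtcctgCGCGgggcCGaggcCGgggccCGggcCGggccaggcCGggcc
Boll (chr1:55363470-55363669, minus strand): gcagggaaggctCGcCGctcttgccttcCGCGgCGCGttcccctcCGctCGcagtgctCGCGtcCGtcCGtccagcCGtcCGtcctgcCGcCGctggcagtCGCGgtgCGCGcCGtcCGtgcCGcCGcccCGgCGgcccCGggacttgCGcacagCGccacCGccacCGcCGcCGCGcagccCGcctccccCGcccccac
Slc18a3 (chr14:32464851-32465050, minus strand): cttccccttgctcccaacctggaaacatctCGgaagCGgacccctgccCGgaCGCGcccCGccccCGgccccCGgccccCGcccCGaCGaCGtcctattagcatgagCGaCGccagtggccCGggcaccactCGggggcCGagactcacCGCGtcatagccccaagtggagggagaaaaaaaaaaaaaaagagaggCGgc
These 200 bases held 31 CpG at Pde8a, 33 at Gabbr2, 28 at Hoxd13, 36 at Boll and 20 at Slc18a3.

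For comparison, the same stretch is printed for 3 dense promoters that had an NMI, at Cdk13 (a cyclin-dependent kinase of transcription, in capitals an ETS motif), Mrpl40 (a protein of the mitochondrial ribosome, in capitals a ZBTB33 motif) and Rps6 (a protein of the small ribosomal subunit, in capitals an ETS motif). They are shown because such motifs were scarcer in the promoters without an NMI, as given further on. The motifs were not absent from them: of the 5 stretches above, that of Pde8a also holds 1 ETS motif, near its 3′ end.
Cdk13 (chr13:17805098-17805297, minus strand): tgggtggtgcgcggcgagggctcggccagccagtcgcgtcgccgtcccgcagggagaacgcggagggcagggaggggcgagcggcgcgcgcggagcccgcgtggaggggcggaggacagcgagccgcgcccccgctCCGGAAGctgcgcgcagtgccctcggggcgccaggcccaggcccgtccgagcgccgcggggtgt
Mrpl40 (chr16:18876863-18877062, minus strand): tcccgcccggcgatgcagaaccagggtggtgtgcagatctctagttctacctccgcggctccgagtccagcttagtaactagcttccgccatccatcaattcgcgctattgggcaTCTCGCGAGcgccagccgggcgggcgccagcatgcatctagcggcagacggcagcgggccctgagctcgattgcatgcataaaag
Rps6 (chr4:86857413-86857612, minus strand): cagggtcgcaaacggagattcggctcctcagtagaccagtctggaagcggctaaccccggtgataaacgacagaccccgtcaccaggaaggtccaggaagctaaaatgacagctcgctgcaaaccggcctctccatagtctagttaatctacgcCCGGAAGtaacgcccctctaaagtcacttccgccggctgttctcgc
These held 34 CpG at Cdk13, 19 at Mrpl40 and 15 at Rps6, so that Cdk13 fell within the range of the 5 promoters above and Mrpl40 and Rps6 below it.

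The share of promoters without an NMI fell steeply with CpG density up to the threshold and then hardly moved. It was 94.0% below 1 CpG per 100 bp, 46.4% from 3 to 4 and 21.1% from 5 to 6. Above the threshold it was 17.6% (330 of 1873, interval 15.9 to 19.4) from 6 to 7, 14.7% (178 of 1211, 12.7 to 16.8) from 8 to 9 and 14.2% (55 of 386, 10.9 to 18.1) from 12 to 14. Of the 121 promoters with 14 or more CpG per 100 bp, 14 (11.6%) still had no NMI. Over all 20807 promoters the share was 48.9%, and over the 13799 promoters below the threshold it was 65.7% (9071). The presence of an NMI chose the groups, so these shares are a description.

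**Figure D1:**
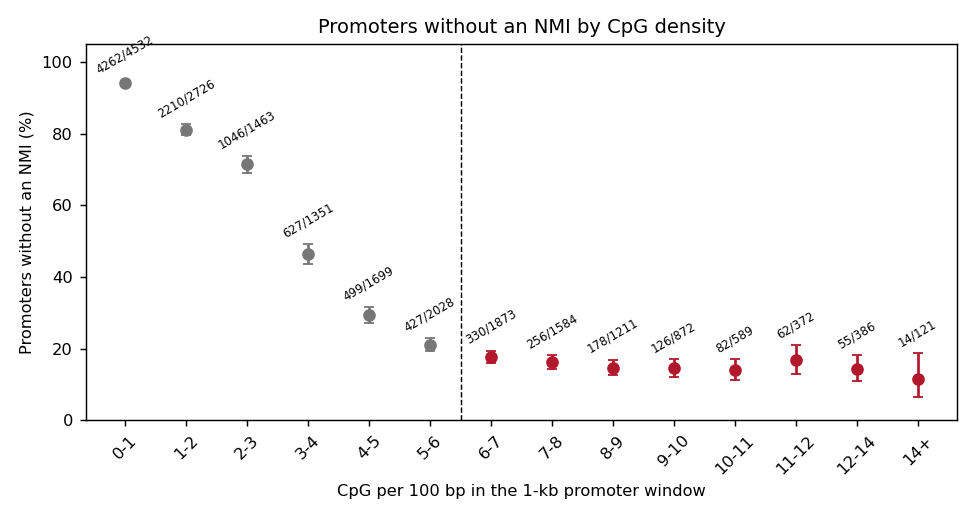
Share of autosomal protein-coding promoters without an NMI (y axis, %) by CpG per 100 bp in the promoter window (x axis); points carry exact 95% intervals and the counts behind them, and the dashed line marks the threshold of 6. To the right of it the points lie between 11.6% and 17.6%.

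The 10 densest promoters without an NMI held 14.9 to 16.2 CpG per 100 bp. They belonged to Pde8a (16.2), Epb41l4b (15.8, a FERM-domain protein), Gpr27 (15.7, an orphan receptor), Cabp7 (15.3, a calcium-binding protein), Lin28b (15.3, an RNA-binding protein that blocks let-7 maturation), Sall3 (15.1, a zinc finger factor), Tmem200b (14.99), Shisa6 (14.99, an auxiliary subunit of AMPA receptors), Cdyl2 (14.9, a chromodomain protein) and Reln (14.9, an extracellular guide of neuronal migration). The nearest NMI lay 34.1 kb from a start site of Pde8a, 91.3 kb from Lin28b and 106.6 kb from Reln. At the lower edge, Iglon5 and Gas6 were just inside with 6.09 CpG per 100 bp, while Tll2, Ptpn18 and Dner were just outside with 5.99.

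The distance to the nearest NMI, which the selection kept above 2 kb, varied widely. Its median from the closest start site of the gene was 49.9 kb (lower quartile 19.4 kb, upper quartile 135.6 kb), with 57 promoters (5.17%) within 5 kb and 351 (31.8%) beyond 100 kb. Over the 9071 promoters below 6 CpG per 100 bp without an NMI the median was larger, at 79.8 kb. The closest were 1700067K01Rik at 2071 bp, Fmnl1 (a formin of the actin cytoskeleton) at 2153 bp, Atp9a at 2156 bp, Sox8 at 2191 bp and Scube1 at 2221 bp. Just outside the limit of 2 kb lay Espn at 1995 bp, Hhipl1 at 1979 bp and Trp73 at 1972 bp. The 5 farthest were Gm2956, Gm10409, Gm3020, Gm3002 and Gm8108 on chromosome 14, at 3683 to 4461 kb, which belong to a run described below. An NMI lay somewhere inside the gene in 130 cases (11.8%), at a median of 13.3 kb from the nearest start site, and these genes were long, with a median of 131.5 kb against 34.2 kb for the other 973.

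The sequence of these promoters was then compared with that of dense promoters with an NMI, weighted to the same CpG density in steps of 0.5 CpG per 100 bp. At equal density (median 7.89 CpG per 100 bp in both), the promoters without an NMI had a higher GC content, with a median of 64.7% (interval 64.4 to 65.03) against 62.9%. Their ratio of observed to expected CpG was correspondingly lower, 0.777 (0.772 to 0.787) against 0.829. The frequency of TpG and CpA together, the products of CpG mutation, was 11.7 per 100 bp (11.7 to 11.8) against 11.5. Repeats took up 6.69% of the window (6.09 to 7.09) against 5.89%, and coding sequence 7.79% (6.49 to 8.59) against 6.49%. Among the 1133 dense promoters where coding sequence filled at least 25% of the window, 249 (22.0%, 19.6 to 24.5) lacked an NMI, beside 14.5% (13.6 to 15.5) of the other 5875. Of those with no coding base in the window, 384 of 2319 (16.6%, 15.1 to 18.1) lacked an NMI, so the share did not rise evenly with coding sequence.

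The CpG-rich stretch also had a different shape. From 0 to 500 bp upstream the median was 5.8 CpG per 100 bp (5.6 to 6.0) in promoters without an NMI and 6.2 in those with an NMI. From 500 to 1500 bp downstream, outside the window used for the selection, it was 3.3 (3.1 to 3.5) against 2.4. From 500 to 1500 bp upstream the medians were 1.5 and 1.4. Over the whole set, CpG-rich sequence therefore extended farther into the gene at promoters without an NMI. This did not hold in every gene group described below. The unweighted downstream medians were 4.35 without and 5.4 with an NMI in signalling, guidance and adhesion genes, and 2.0 and 3.8 in germline genes. For genes on none of the lists they were 3.1 and 2.4.

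**Figure D2:**
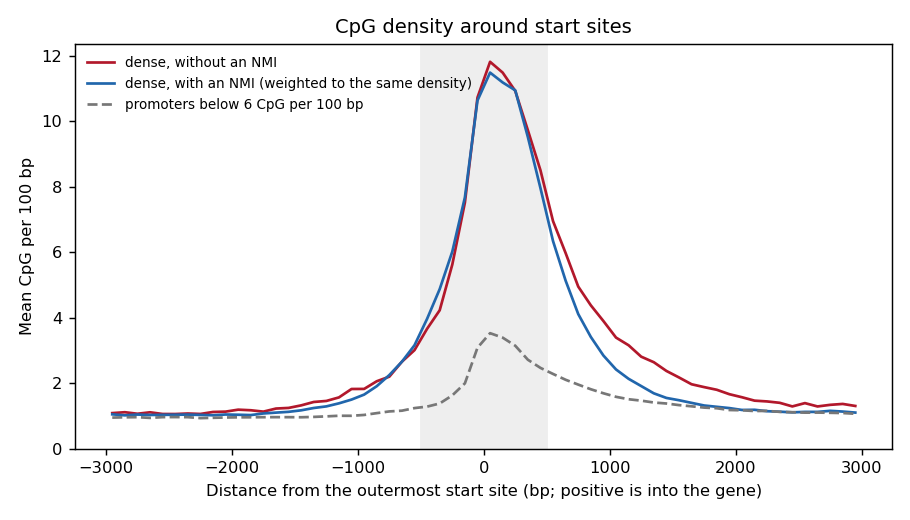
Mean CpG per 100 bp (y axis) in 100-bp bins by distance from the outermost start site (x axis, bp) for dense promoters without an NMI, dense promoters with an NMI weighted to the same density, and promoters below 6 CpG per 100 bp; the grey band is the window used for the selection. At 950 bp into the gene the first 2 curves stand at 3.90 and 2.85.

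CpG islands predicted from sequence alone (500-bp windows, merged where they overlap, with a GC content from 55% and observed/expected CpG from 0.65) overlapped every one of these windows. Island length had a median of 1403 bp (1379 to 1441) without an NMI and 1360 bp with, a difference of 43 bp that turned to -5 bp with windows of 250 bp. The difference was larger at the long end. Islands of 2 kb or more were found at 181 promoters without an NMI (16.4%, 14.3 to 18.7) against a weighted 9.42% with an NMI, and islands of 3 kb or more at 30 (2.72%, 1.84 to 3.86) against 1.11%.

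The 10 longest of these islands lay at Tlx3 (4575 bp, a homeobox factor that specifies glutamatergic neurons), Tshz3 (3918 bp, a zinc finger factor), Sp5 (3856 bp, a Wnt-responsive factor), Pou3f2 (3850 bp, a neural POU factor), Prdm16 (3696 bp, a regulator of brown fat), Foxe1 (3434 bp, a forkhead factor of the thyroid), Sim2 (3385 bp), Hmx3 (3384 bp, a homeobox factor of the inner ear), Prob1 (3371 bp) and Pou3f1 (3323 bp). Of the 30 promoters with an island of at least 3 kb, 14 (46.7%) were on a developmental transcription factor list, beside 96 (8.70%) of all 1103, and 11 were on no list.

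The genes themselves were simpler in annotation. Promoters without an NMI had a median of 3 annotated start sites (interval 3 to 3) against 5, and their outermost transcript had 6 exons (6 to 7) against 8. A sole start site was annotated for 284 of them (25.7%, 23.2 to 28.4) against a weighted 9.13%, and the outermost transcript had a single exon in 94 (8.52%, 6.94 to 10.3) against 3.50%. Read the other way, 33.8% of the 839 dense promoters with 1 start site lacked an NMI, beside 9.38% of the 3570 with 5 or more. A gene was selected only if all its start sites were away from an NMI, so genes with fewer start sites could meet the rule more easily, and annotation depth itself differs between genes. Counting the outermost start site alone left 16.8% of dense promoters without an NMI.

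Divergent start sites were scarce at the promoters without an NMI. A start site of another gene pointing the opposite way within 1 kb upstream was annotated at 118 of them (10.7%, 8.93 to 12.7), against 29.5% of those with an NMI. For protein-coding partners the figures were 39 (3.54%, 2.53 to 4.80) and a weighted 20.7%. The gap was present at every density. From 6 to 7 CpG per 100 bp, 8.79% of promoters without an NMI were divergent against 29.6% with, and from 10 to 12 CpG per 100 bp 12.5% against 29.96%. At 12 or more, where only 69 promoters lacked an NMI, the figures were 14.5% (7.17 to 25.0) and 26.5%.

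Sequence motifs of promoter-binding factors were then searched from 250 bp before to 50 bp after the outermost start site, on both strands. The 12 motifs were exact strings, none of which holds another whole, although GC box and E2F strings can share bases. The ETS motif CCGGAAG, bound by GABPA and related activators of housekeeping genes, was in 62 promoters without an NMI (5.62%, 4.34 to 7.15) against a weighted 20.7% of those with an NMI and 11.03% of all 20807 promoters. The motif TGCGCATGC, bound by NRF1, an activator of nuclear genes for mitochondria, was in 8 (0.725%, 0.314 to 1.42) against 4.05%, and in 1.94% of all promoters. The YY1 motif AAGATGGC was in 12 (1.09%) against 5.06%, with 2.93% of all. The cyclic AMP response element TGACGTCA was in 13 (1.18%) against 4.47%, with 2.43% of all. The string TCTCGCGAG, assigned to ZBTB33, was in 7 (0.635%) against 2.34%, with 0.884% of all.

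At least 1 of these 5 motifs was present in 99 promoters without an NMI (8.98%, 7.35 to 10.8) and in a weighted 32.1% of those with an NMI. The 5 were not planned as a group. They are those of the 12 with the largest relative shortfall in these same data, so their pooled values are a description only. The YY1 motif has no CpG while the other 4 do. Within densities, the ETS motif was in 7.58% against 25.1% of promoters from 6 to 7 CpG per 100 bp, and in 6.25% against 15.5% from 10 to 12. At 12 or more it was in 2 of the 69 without an NMI (2.90%, 0.353 to 10.1) against 9.84%, and any of the 5 motifs in 9 (13.04%, 6.14 to 23.3) against 17.9%, so that the values with an NMI lay inside the intervals there. In a comparison chosen after seeing the data, divergent promoters were left out. The ETS motif was then in 5.58% of 985 promoters without an NMI and in 17.5% of those with an NMI.

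CCAAT, bound by NF-Y, was also less frequent, in 29.6% of promoters without an NMI (26.9 to 32.3) against a weighted 37.0% (38.6% of all), as was the SOX-type string AACAAAG, in 1.90% (1.18 to 2.90) against 3.04% (5.32% of all). The E2F string TCCCGC was slightly more frequent, in 48.7% (45.7 to 51.7) against 45.6% (24.6% of all). For the other 4 motifs the value with an NMI lay inside the interval. The GC box GGGCGG, bound by SP1, was in 77.2% of promoters without an NMI (74.6 to 79.7) and in a weighted 77.2% of those with an NMI, beside 43.7% of all promoters. The E-box CACGTG was in 10.4% against 11.6% (7.82% of all), TATAAA in 5.71% against 4.80% (12.7% of all) and the homeobox-type string TAATTA in 1.18% against 1.28% (5.21% of all). A match is a string in the reference sequence and says nothing of binding in these cells.

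**Figure D3:**
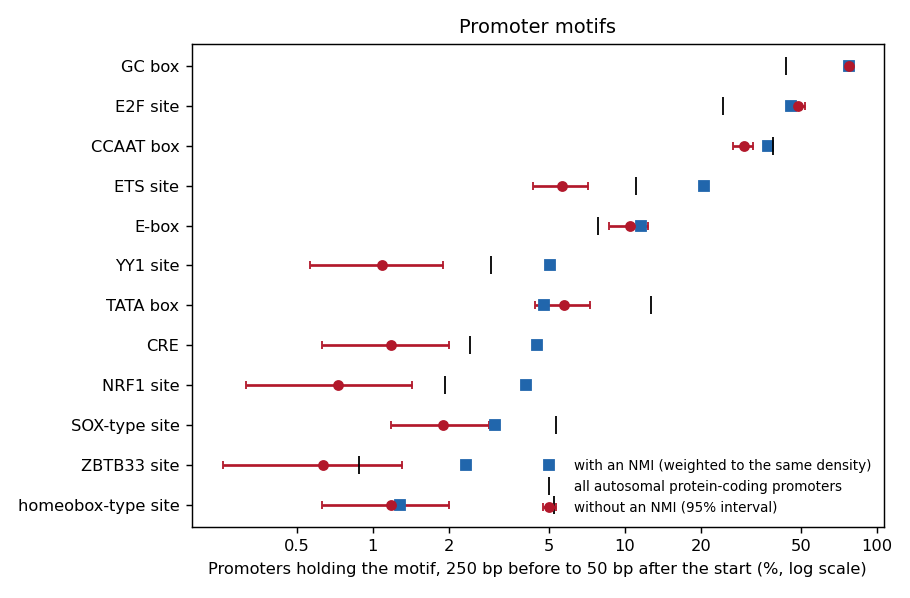
Share of promoters holding each of 12 motifs (x axis, %, log scale) in dense promoters without an NMI (circles with exact 95% intervals), dense promoters with an NMI weighted to the same density (squares) and all autosomal protein-coding promoters (ticks). The ETS, NRF1, YY1, CRE, ZBTB33, CCAAT and SOX-type squares lie to the right of the circles' intervals, the E2F square lies just to the left, and the GC box symbols coincide at 77.2%.

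Taking both features together, the dense promoters spread over a wide range. Of the 718 that held any of the 5 motifs and also had a divergent start site, 11 (1.53%, 0.767 to 2.72) lacked an NMI. Of the 3924 with neither, 897 (22.9%, 21.6 to 24.2) did, and these 897 made up 81.3% of the 1103, while the 3924 were 55.99% of all dense promoters. Because the 5 motifs are those with the largest relative shortfall in these same data, this split is a description and no independent support.

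**Figure D4:**
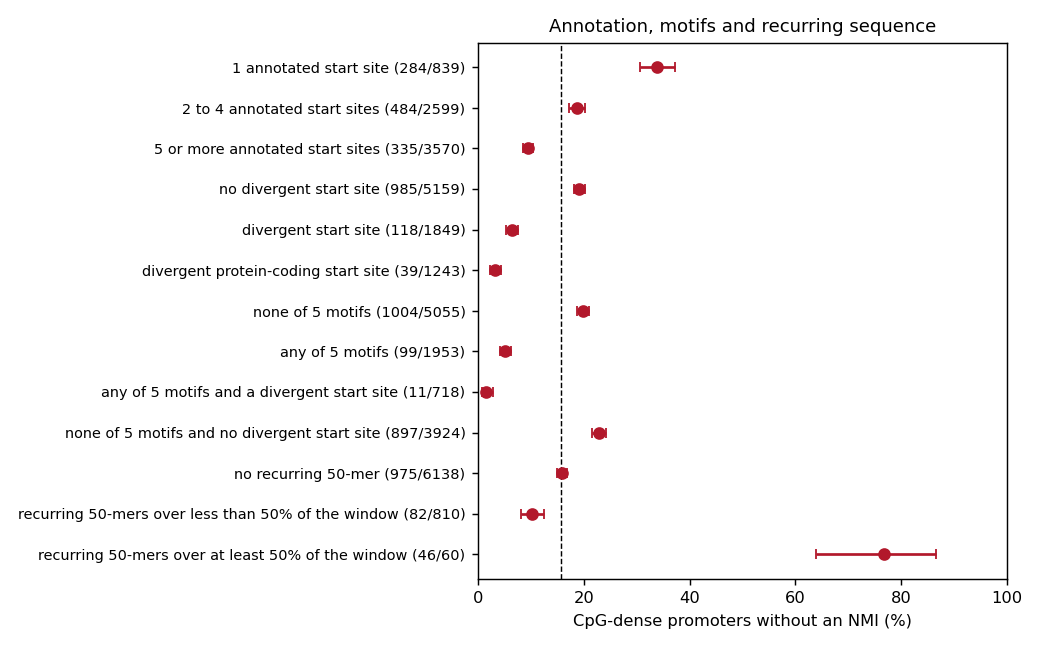
Share of CpG-dense promoters without an NMI (x axis, %) for windows split by annotated start sites, divergent start sites, motifs and recurring sequence; points carry exact 95% intervals, counts are in brackets and the dashed line is the 15.7% over all dense promoters. The share is lowest, 1.53%, where a motif and a divergent start site occur together. The highest of those drawn is 76.7%, where at least 50% of the window's 50-mers recur.

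The promoters without an NMI were then read by gene. Of the 1103 genes, 344 (31.2%) were on at least 1 of 42 lists of gene families and functions, and 759 were on none. Against the 15.7% over all dense promoters, the share without an NMI was higher in 30 lists, and in 22 of them the whole interval lay above it. In 6 lists the whole interval lay below it, and 8 lists had no such promoter. The 30 lists were also above the respective share over all dense promoters with an NMI distance of 0, 1 or 5 kb, with the outermost start site only, and without the narrow NMIs.

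**Figure D5:**
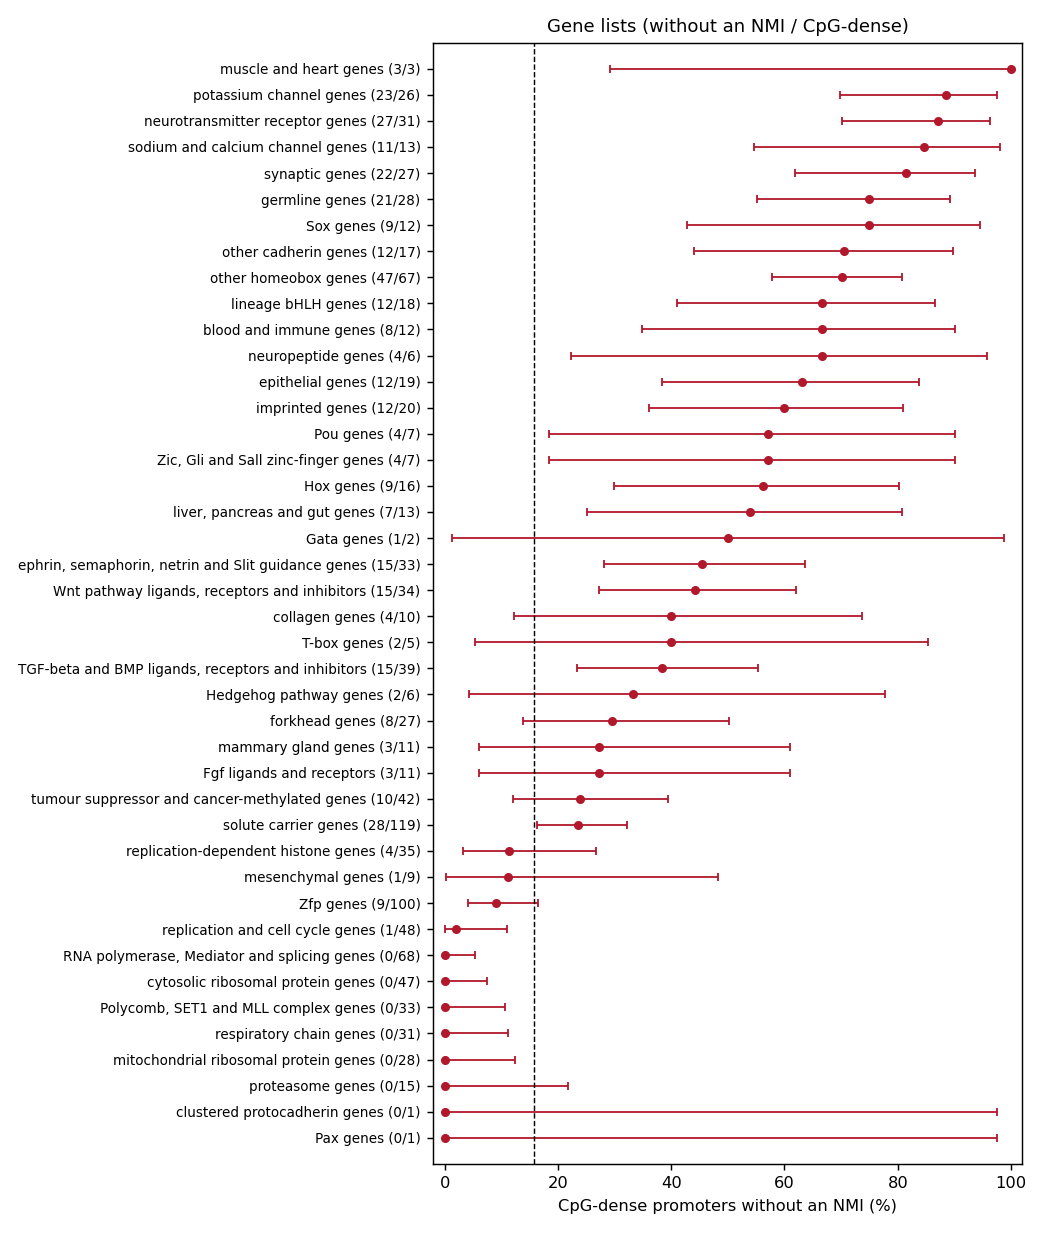
Share of CpG-dense promoters without an NMI (x axis, %) in 42 gene lists; points carry exact 95% intervals, counts without an NMI and of dense promoters are in brackets, and the dashed line is the 15.7% over all dense promoters. Channel, receptor and synaptic lists stand near the top and lists of the general cell machinery at or near 0.

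Developmental transcription factors were the first large group, with 96 of 162 dense promoters lacking an NMI (59.3%, 51.3 to 66.9). Homeobox genes outside the Hox clusters gave 47 of 67. Among them were Cux2 (12.9 CpG per 100 bp, an upper-layer cortical factor, 4.95 kb from the nearest NMI), Six2 (11.9, a factor of nephron progenitors), Nkx1-1 (11.8) and Hmx1 (11.8, a factor of the eye and ear). Irx2 (12.4, NMI of 5126 bp), Hhex (12.3, 880 bp) and Cux1 (12.2, 4603 bp), which is the ubiquitous relative of Cux2, were as dense and had an NMI. Hox genes gave 9 of 16, with Hoxa13 (12.6) and Hoxd13 (11.8) without and Hoxa4 (12.5) and Hoxb9 (8.99) with an NMI. Sox genes gave 9 of 12, with Sox30 (11.2), Sox11 (9.99), Sox13 (8.89) and the neural factor Sox1 (8.39) without, and Sox12 (12.6), Sox2 (9.69) and Sox9 (7.59) with an NMI. Lineage bHLH genes gave 12 of 18, with Tcf15 (11.7, a somite factor) and Bhlhe23 (9.89) without, and Hey1 (12.4) and Twist1 (11.4, a mesenchymal factor) with an NMI.

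In the POU, Zic/Gli/Sall, forkhead and T-box families the share without an NMI ran from 29.6% to 57.1%. POU genes gave 4 of 7, namely Pou4f1 (12.5), Pou3f2 (8.39), Pou4f2 (7.69) and Pou3f1 (6.39), while Pou2f1 (10.7), which is expressed widely, Pou6f1 (8.89) and Pou2f2 (8.79) had an NMI. Among Zic, Gli and Sall genes it was 4 of 7, with Sall3, Zic2 (12.2), Glis1 (11.1) and Gli2 (6.49) without and Gli3 (10.99) with an NMI. Forkhead genes gave 8 of 27, with Foxd3 (9.49, a neural crest factor), Foxi3 (8.89), Foxl2 (8.49, an ovarian factor) and Foxe3 (7.99, a lens factor) without, and Foxk2 (14.9), Foxo6 (12.8) and Foxo1 (12.2) with an NMI. T-box genes gave 2 of 5, namely Tbx2 (9.39) and Tbx21 (7.99), the T-bet factor of T helper cells, while Tbx3 (8.19), a factor of mammary development, had an NMI of 3060 bp. The intervals of these families are wide (Gata genes, with Gata5 without and Gata2 with, are 1 of 2).

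Transcription factor promoters without an NMI had longer islands than the rest, with a median of 1966 bp (1733 to 2238) against 1403 bp over all 1103, and denser flanks, with 6.1 CpG per 100 bp from 500 to 1500 bp downstream. Those with an NMI in the same group were similar, at 1919 bp and 5.5. For genes on no list the island medians were 1367 bp without and 1374 bp with an NMI, unweighted. Any of the 5 motifs was in 6 of the 96 (6.25%) and in 4 of the 61 with an NMI (6.56%), counts too small for a close comparison. Divergent start sites were at 17.7% and 24.6%. On no list, 10.0% of the 759 promoters without an NMI and 32.4% of the 5138 with an NMI held any of the 5.

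Channels, receptors and synaptic proteins had the highest share, with 87 of 103 (84.5%, 76.0 to 90.8). Potassium channel genes gave 23 of 26, with Kcng3 (13.1 CpG per 100 bp, a silent subunit), Kcnd3 (12.2, the Kv4.3 channel of the transient outward current, 2.48 kb from an NMI) and Kcnj12 (11.8, an inward rectifier). The sole dense potassium channel gene with a start site inside an NMI was Kcnmb4 (14.1), an accessory subunit, and 2 had an NMI only within 2 kb. Sodium and calcium channel genes gave 11 of 13, among them Cacng4 (12.5), Cacna2d1 (12.1, 1212 kb from the nearest NMI) and the T-type channel gene Cacna1i (11.5), while Cacna1g (7.99) had an NMI. Neurotransmitter receptor genes gave 27 of 31, among them Gabbr2 (13.1), Grid1 (13.1), the kainate receptor gene Grik3 (12.5) and the serotonin receptor gene Htr7 (11.1). Gabbr1 (7.09), whose product pairs with that of Gabbr2, had an NMI. Synaptic genes gave 22 of 27, with Shank3 (12.3, a postsynaptic scaffold), Syt7 (12.2, a calcium sensor of release), Dlgap3 (11.8) and Cbln1 (11.8, a cerebellar synapse organiser) without, and Dlgap4 (12.8), Syt17 (9.09) and Nrxn2 (6.89) with an NMI. Neuropeptide genes gave 4 of 6, namely Prok2, Nppc, Penk and Npy.

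Signalling, guidance and adhesion genes took a middle position, with 62 of 141 (44.0%, 35.6 to 52.6). Among Wnt ligands, receptors and inhibitors it was 15 of 34. The ligand genes Wnt4 (13.7), Wnt5b (12.7) and Wnt2b (9.59) and the inhibitor gene Sfrp1 (10.3) lacked an NMI, and the coreceptor gene Lrp6 (14.9), the ligand gene Wnt9a (13.1) and the receptor gene Fzd3 (12.7) had one. Among TGF-beta and BMP genes it was 15 of 39. The ligand genes Bmp7 (9.99) and Bmp2 (9.99, 704.7 kb from an NMI), the antagonist gene Nog (11.3) and the pseudoreceptor gene Bambi (9.49) lacked an NMI, and the receptor gene Acvr2a (14.3) and the signal transducers Smad2 (14.8) and Smad4 (14.1) had one. Fgf ligands and receptors gave 3 of 11, and all 3 were ligand genes, Fgf18 (12.1), Fgf8 (10.2) and Fgf5 (7.89), while Fgfr2 (8.79) had an NMI of 3266 bp. Hedgehog genes gave 2 of 6, the ligand gene Ihh (10.1) and the effector gene Gli2.

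Guidance genes gave 15 of 33, with the plexin gene Plxnc1 (12.99), the netrin receptor gene Unc5a (11.6), Epha8 (10.9) and Efna2 (10.8) without, and Plxna1 (13.9), Efnb2 (12.2) and Efna5 (11.7) with an NMI. Cadherin genes outside the clustered protocadherins gave 12 of 17, with the planar polarity genes Celsr1 (12.3) and Celsr2 (9.99), the Fat ligand gene Dchs1 (10.7) and Cdh4 (10.5) without, and N-cadherin, Cdh2 (10.9), with an NMI of 3054 bp. Collagen genes gave 4 of 10. Col23a1 (9.79), Col8a2, Col13a1 and the cartilage collagen gene Col2a1 (6.19) lacked an NMI, while Col5a1 (9.69) and the basement membrane pair Col4a1 and Col4a2 (9.69 each, in a shared NMI of 1999 bp) had one.

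Germline genes lacked an NMI in 21 of 28 cases (interval of the share 55.1% to 89.3%). They included Sox30 and Boll (11.2 each), Tcfl5 (10.99, a factor of spermatocytes) and Ccna1 (8.99, the cyclin of male meiosis), and their islands had a median of 1279 bp (1128 to 1509). Any of the 5 motifs was in 6 of the 21 (28.6%) and in 1 of the 7 with an NMI (14.3%). The shortfall of these motifs was thus not seen in germline genes, although the counts are too small for a close comparison. Mybl1 (10.4), Nanos1 (9.99) and Crem (9.59) had an NMI. Imprinted genes lacked an NMI in 12 of 20 cases (60.0%, 36.1 to 80.9), among them Zdbf2 (12.1), Dio3 (11.1), Cdkn1c (10.6) and Klf14 (10.1), whereas Igf2r (10.7), Ube3a (9.49) and Copg2 (8.69) had an NMI. Imprinting control regions are methylated on the allele from only 1 parent, and a list of positions does not separate alleles.

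Of tissue markers, all 3 dense promoters of muscle and heart genes lacked an NMI, at Jph1 (8.59), Ryr2 (7.99, the calcium release channel of heart muscle) and Des (6.99, the intermediate filament of muscle). Blood and immune genes gave 8 of 12, with Myb (9.29), Tbx21, Ikzf3 (7.49) and Kit (6.99) without and Ikzf2 (9.79) and Gata2 (8.79) with an NMI. Liver, pancreas and gut genes gave 7 of 13, with Insm1 (12.6), Cdx1 (10.3), Nkx6-1 (8.79) and Onecut1 (8.09) without and Cebpa (10.5) with an NMI.

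Some markers of the epithelium itself also lacked NMIs. The epithelial list gave 12 of 19 (63.2%, 38.4 to 83.7), including Ovol1 (10.7, an epithelial transcription factor), Spint1 (9.39) and Spint2 (8.79), which encode inhibitors of surface serine proteases, and the desmosome gene Dsp (9.19). The other 8 were Cdh1, the gene of E-cadherin, Grhl2, Itgb4, Marveld2, Marveld3, Ocln, Perp and St14. On this list 6 dense promoters had an NMI, among them those of Tjp1 (10.3), Grhl1 (10.2) and Llgl2 (7.79). On the mesenchymal list 1 of 9 dense promoters lacked an NMI (11.1%, 0.281 to 48.25), that of Foxc2 (7.69), and Twist1, Zeb1 (11.4) and Cdh2 had one. This interval overlaps the epithelial one and includes the 15.7% over all dense promoters. Mammary gland genes gave 3 of 11 (27.3%, 6.02 to 60.97), an interval that also includes the 15.7%. Wnt4, Erbb4 (7.19, a receptor of lactation) and Tfap2c (6.89) lacked an NMI, and Bmi1 (13.3), Stat5b (11.2) and Igf1r (9.89) had one. RNA levels were not analysed here, so whether these genes were expressed was not tested. Of tumour suppressors and genes often methylated in cancer, 10 of 42 lacked an NMI (23.8%, 12.1 to 39.5), among them Igfbp3 (11.99), Cdkn2a (10.8), Cdkn1c and Sfrp1, while Rb1 (15.1), Smad4 and Stk11 (12.9) had one.

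General cell machinery was almost missing from the set, with 1 of 270 dense promoters (0.370%, 0.00938 to 2.05). The exception was Ccna1, 1 of 48 replication and cell cycle genes, which is also on the germline list. None of 47 cytosolic ribosomal protein genes, 28 mitochondrial ribosomal protein genes, 31 respiratory chain genes, 15 proteasome genes, 68 genes of RNA polymerase, Mediator and splicing or 33 genes of Polycomb, SET1 and MLL complexes lacked an NMI. Rps6 (8.99), Mrps6 (12.4), Cox4i1 (13.1), Psma7 (12.8), Hnrnpa0 (15.6) and Rybp (16.2) were examples with an NMI. In this group 38.8% of the 268 promoters with an NMI held any of the 5 motifs and 37.3% were divergent. Zfp genes gave 9 of 100, with an interval of the share (4.20% to 16.4%) that includes the 15.7% over all. Solute carrier genes gave 28 of 119 (23.5%, 16.2 to 32.2), including the vesicular transporter gene Slc18a3 (8.89) and the monocarboxylate transporter genes Slc16a6 (11.6) and Slc16a10 (8.99).

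Along the chromosomes the share ran from 10.2% of 432 dense promoters on chromosome 8 to 23.8% of 252 on chromosome 14. Ordered by position among dense promoters only, the 1103 formed 827 runs, of which 634 were of 1 promoter and 46, with 175 promoters, were of 3 or more. The longest was a run of 19 on chromosome 14 (start sites from 3332627 to 7315049), made up of 2610042L04Rik and 18 genes with provisional Gm names such as Gm2956, Gm3020 and Gm3739. A run of 7, also on chromosome 14, included the neurofilament genes Nefl and Nefm and, at its other end, Slc25a37, Entpd4, Gm16867 and Entpd4b. The 60 promoters without an NMI behind the 23.8% on chromosome 14 thus included the run of 19 and these last genes, whose recurring sequence is given below. A run of 6 on chromosome 17 held 9030025P20Rik, Gm3417, Gm3435, Ermard, Tcte3 and Gm3448. Another run of 6, on chromosome 2, held Hoxd13, Hoxd9, Hoxd8, Hoxd3, Hoxd4 and Hoxd1 within 94.7 kb.

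Some of these runs lay in sequence that occurs more than once in the genome. The share of the window's 50-mers that recur was 37.1% to 100% in the 19 genes on chromosome 14. It was 100% in Slc25a37, Entpd4, Gm16867 and Entpd4b, and 95.4% to 100% in the 6 genes on chromosome 17. By contrast it was 0% in Nefl, Nefm and Hoxd13, 1.58% in Hoxd9 and 6.51% in Hoxd3. All 4 replication-dependent histone genes without an NMI, Hist1h2bq, Hist1h2ao, Hist1h2ap and Hist1h2br, stood at 100%, while 27 of the 35 dense histone promoters had an NMI, among them Hist1h2ad at 57.5%. Over all dense promoters, at least 50% of the window's 50-mers recurred in 60, and 46 of these (76.7%, 63.96 to 86.6) lacked an NMI. They were 4.17% of the 1103 against a weighted 0.158% of promoters with an NMI. Where a smaller part of the window's 50-mers recurred, the share without an NMI was lower than over all, at 82 of 810 (10.1%, 8.13 to 12.4). Any recurring 50-mer was present in 11.6% of promoters without an NMI and in a weighted 12.8% of those with an NMI, a difference whose sign changed under 4 of 15 alternatives. In the 6138 dense promoters with no recurring 50-mer the share without an NMI was 15.9% (975, interval 14.98 to 16.8), close to the 15.7% over all. The authors dropped reads without a unique position, and the part of this step in the single calls was not tested.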

How the data were processed

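The authors isolated genomic DNA of C127 cells, captured it on the CXXC domain of KDM2B, pooled the fractions eluted at high salt and mapped the reads to mm10 with Bowtie2. Reads that did not map uniquely were dropped, as were duplicates (SAMtools), and MACS (in the submitters' processing notes, MACS2) called NMIs at a false discovery rate of 0.01. Tool versions, and use of the input as control, were not given in the sources used here. The list deposited by the authors gives positions only (chromosome, start and end, with no score, other value or replicate), and its starts were shifted to count from 1. Read depth is unknown. The ATAC, RNA and input samples were not analysed here.

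Genes were taken from GENCODE M21, with sequence from GRCm38, whose chromosome lengths match mm10. Shares carry exact (Clopper-Pearson) 95% intervals and medians order-statistic intervals. Divergent start sites were sought within 1 kb upstream. Recurring sequence was the share of the window's 50-mers that occur more than once in the genome, on either strand and inside or outside the window. The members and lists were chosen with earlier results of these data known, and list groups after their values were seen. The pooled group of 5 motifs was not planned. Genes named were the 10 densest, the 10 with the longest islands, the 5 nearest to and 5 farthest from an NMI, 3 on each side of each threshold, the 3 longest runs and, per list, up to 4 without (all where 5 or fewer) and 3 with an NMI by density; other epithelial genes and Hoxd genes were added after their values were seen. Some genes that the rule takes are not reported here. Alternatives covered NMI distance, start sites, NMI width, overlap, density, window, repeats, recurring sequence, weighting and motif window. The code (Python 3.11.15, numpy 2.4.6, pandas 2.3.3, SciPy 1.17.1) was tested on simulated data.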

Additional observations from a re-analysis of the deposited data

How the results depend on the processing

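No paired analysis was possible because the list came from 1 BioCAP library and carries no replicates. Of 119 alternatives, 97 were classed as leaving the reported value in place, 21 as moving it and 1 as reversing it. For shares and differences, in place meant within the counting interval of the value reported. The number of promoters without an NMI, reported as 1103, was judged more loosely. Values from 773 to 1530 were classed as in place, and only 517 and 516 as moved. The number of gene lists above the overall share (30 to 32) has no counting interval. A difference changed sign under 6 of the 119 alternatives, 5 of which started from a reported difference smaller than its counting error. The share of dense promoters without an NMI was 16.9% at an NMI distance of 0 bp, 16.8% with the outermost start site only, 17.2% (17.19%) without narrow NMIs, 18.5% when an NMI had to cover 50% of the window, 16.9% (16.93%) at a density minimum of 5, 14.6% at 8 and 17.2% (17.20%) in windows of 1000 bp either side. The last 2 retained 517 and 516 promoters without an NMI, by construction.

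The difference in island length reversed to -5 bp with windows of 250 bp and was 97.5 bp with 1000 bp, where that in divergent start sites was -15.9 percentage points; it was negative under all 14 alternatives. The difference in the share with recurring 50-mers, reported as -1.22 points, was -3.76 points at a density minimum of 8 and changed sign under 4 alternatives: 2.03 points with 100-mers, 0.132 at a density minimum of 5, 0.132 with windows of 250 bp and 0.00428 when an NMI had to cover 50% of the window. The difference in coding share was 3.10 points at a density minimum of 8. With motifs searched 500 bp either side, the differences were -1.30 (TATA, reported as 0.91), -4.11 (NRF1), -19.5 (ETS), -7.55 (YY1) and -3.31 (SOX-type) points. Without divergent promoters, chosen after seeing the data, they were -11.9 (ETS) and -3.02 (YY1). The cause was not tested. Limiting repeats to under 50% removed no window. The depth of the library and the enrichment of each NMI are unknown, so weakly captured islands cannot be told from absent ones.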

Other observations

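The 81 dense promoters with an NMI within 2 kb but not at a start site stood between the groups in divergent start sites and observed/expected CpG. In density and island length they lay above both. Their nearest NMI lay at a median of 507 bp from a start site. Their median density was 8.29 CpG per 100 bp, beside 7.89 without and an unweighted 8.09 with an NMI. A divergent start site was annotated in 16.0% of them and a divergent protein-coding one in 4.94%, the last being near the 3.54% of promoters without an NMI. Their islands had a median of 1490 bp, beside 1403 bp without and an unweighted 1381 bp with an NMI. Their observed/expected ratio had a median of 0.784, beside 0.777 without and an unweighted 0.837 with an NMI.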
